A study of Mus musculus with 6 samples.

Results

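The 39 genes described here make and copy DNA during S phase, the part of the cell cycle in which the genome is replicated. They were chosen as a fixed list of symbols, which covers origin licensing, the replicative helicase, the polymerases, the sliding clamp and its loader, nucleotide supply and the cyclins E. All 39 were present among the 45583 gene rows of the count table, and all 39 were among the 13741 genes with enough counts to be tested. RNA was sequenced from the cerebral cortex of 6 male mouse fetuses at GD15.5 (GD, gestational day), 1 library per fetus. All fetuses came from the Cyp19-EGFP strain, an aromatase reporter that carries an added transgene with enhanced green fluorescent protein placed at the start of Cyp19a1, and their genotype is given as WT, SRY +. Between GD10.5 and GD14.5, dams were injected under the skin daily with 50 µg/kg bisphenol A (BPA, a plastic monomer with estrogenic activity) or with the peanut oil vehicle. Each treatment gave 3 fetuses. Litters are not given, so fetuses of a group may share a dam, and the p-values measure only the spread between these libraries.

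Replication starts at origins, where the origin recognition complex, Cdc6 and Cdt1 load the Mcm2-7 ring onto DNA. Cdc45 and the GINS complex then turn that ring into an active helicase, and primase, the polymerases, the clamp Pcna and its loader follow the fork. In the fetal cortex, radial glia divide at the ventricle and intermediate progenitors divide above them, while the neurons they produce have left the cell cycle. The transcripts of replication genes are therefore carried mainly by progenitors that are about to enter, or are in, S phase. In a bulk sample, fewer cycling cells and less of a transcript in each cycling cell cannot be told apart.

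Prenatal BPA was compared with vehicle to ask whether the replication genes were expressed at another level in the exposed cortex. No replication gene passed the test. By edgeR's quasi-likelihood test, 0 of the 39 had an adjusted p under 0.1, against 0% of all genes tested, and the adjusted p was 1.0 for each. An unadjusted p under 0.05 was found for 1 of the 39, Gins1, against 2.2% of all genes tested (302 of 13741). It was lower in BPA, as were 1.18% of all genes at that p. DESeq2 gave 0 members with an adjusted p under 0.1 and 0 with an unadjusted p under 0.05, and limma-voom gave 0 and 1.

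The differences were small on the log2 scale. The log2 fold change (BPA against vehicle) ranged from -0.47 to 0.27 over the 39 genes, and its absolute value was under 0.1 for 25 and under 0.2 for 36. The 95% interval of the difference stayed within a 2-fold change in either direction for 38 of the 39 genes, the exception being Orc1, and within a 1.5-fold change for 32. The interval left out 0 for Gins1 alone. The fitted value was below 0 for 26 genes and above 0 for 13, with a median of -0.038. Over all genes tested, 49.5% were below 0 and 50.5% above, with a median of 0.002. Without BPA replicate 3 the count below 0 dropped to 9 and the median was 0.052, and that library is described after the genes themselves.

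**Figure D1:**
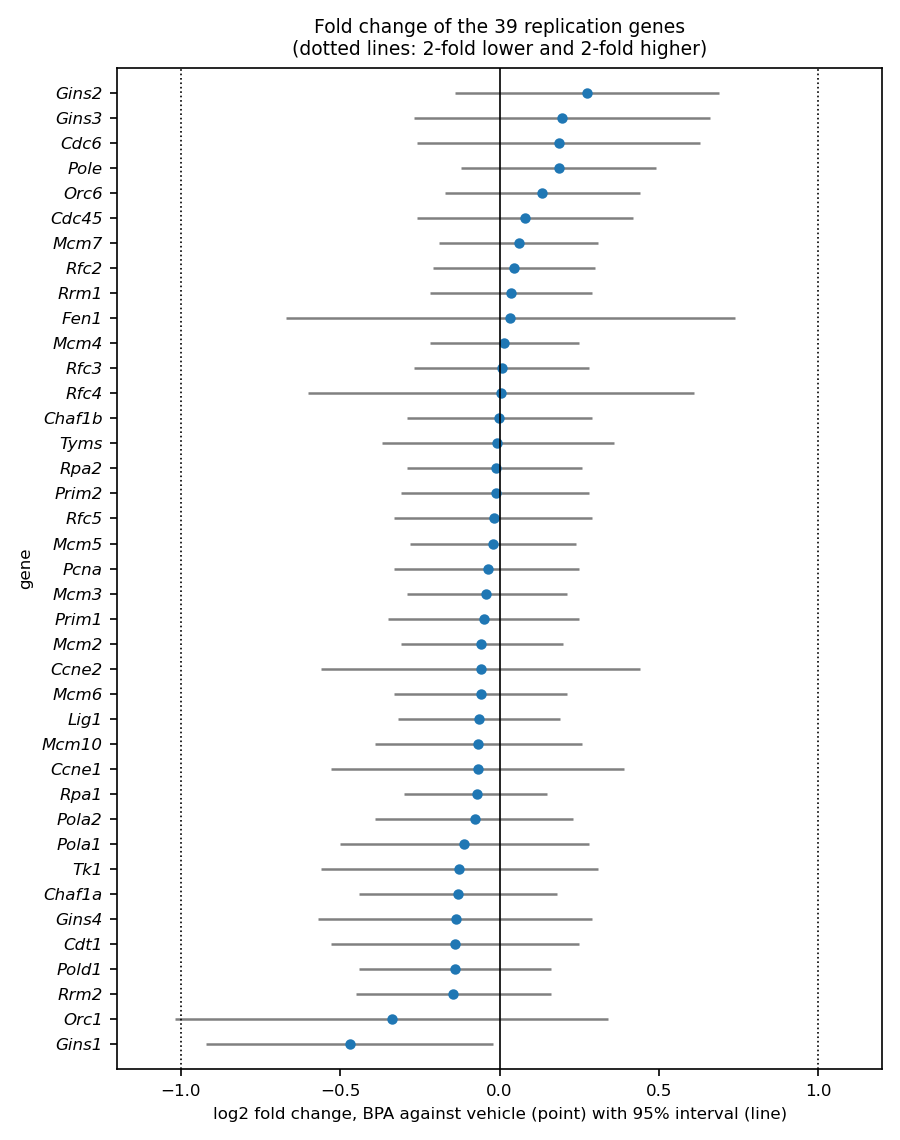
Log2 fold change of each of the 39 replication genes (x axis, BPA against vehicle, n = 3 per group), ordered by value on the y axis, with points for the edgeR estimate and lines for its 95% interval. The estimates run from -0.47 for Gins1 to 0.27 for Gins2, and the line crosses 0 for every gene but Gins1.

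The median level of the 39 genes, not corrected for length, was near that of the genes with enough counts to be tested. Levels are given as CPM, a gene's counts relative to the library size after TMM scaling, which corrects the sizes for differences in composition. The median gene of the list averaged 27.7 CPM over the 6 libraries, against 28.6 CPM for all genes tested, and 30 of the 39 averaged at least 10 CPM. The means of single genes ran from 2.35 CPM for Fen1 to 135 CPM for Rrm1. Total counts ran from 3444601 in BPA replicate 3 to 7180835 in vehicle replicate 2, so that a count of 0 allowed up to 0.871 and 0.418 CPM, counting error alone. No replication gene was near that floor, the lowest count of any being 8, for Fen1.

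Levels of different genes were compared per kilobase of the principal transcript. The clamp gene Pcna was highest, with 54.3 ± 9.74 CPM per kilobase in vehicle and 52.8 ± 6.71 in BPA (SD, n = 3). By this length, Mcm2 (35.7, mean of 6 libraries), the ribonucleotide reductase subunit Rrm1 (33.9) and Mcm7 (32.5) followed, and Orc1 (1.07) and the flap endonuclease Fen1 (0.989) were lowest. Between neighbors in this order, the ranges of the 6 libraries overlapped in all but 2 of 38 pairs. These were Pcna over Mcm2 (45.6 to 65.6 against 28.0 to 38.6 CPM per kilobase) and Gins2 over Orc1 (1.92 to 2.78 against 0.779 to 1.54). Subunits of the same complex were not always at like levels. The highest of the 6 Mcm2-7 genes was 1.53 times the lowest, while the highest of the 4 GINS genes, Gins4, was 7.72 times the lowest, Gins2. With the union of all exons as the length, these ratios were 1.4 and 8.12, but the order within them changed. Mcm4 went from the lowest of the ring to the highest (23.3 by both lengths, with Mcm2 at 17.3), and the ratio of Rrm1 to Rrm2 went from 1.31 to 0.6. By that length, Mcm4, Mcm7 (21.8), Mcm5 (21.1) and Rrm2 (20.5) followed Pcna (33.9), while Rrm1 was at 12.3. Pcna at the top and Orc1 and Fen1 at the bottom held by both lengths, and the order between them was not settled. The levels of Gins2 and Fen1 are uncertain, since 67.3% and 84.2% of their exonic bases also lie in exons of opposite-strand genes. The share in exons of other genes was 17.4% for Ccne2, 15.1% for Rfc2, 12.6% for Mcm7, 10.8% for Orc1 and 10.7% for Rfc5.

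**Figure D2:**
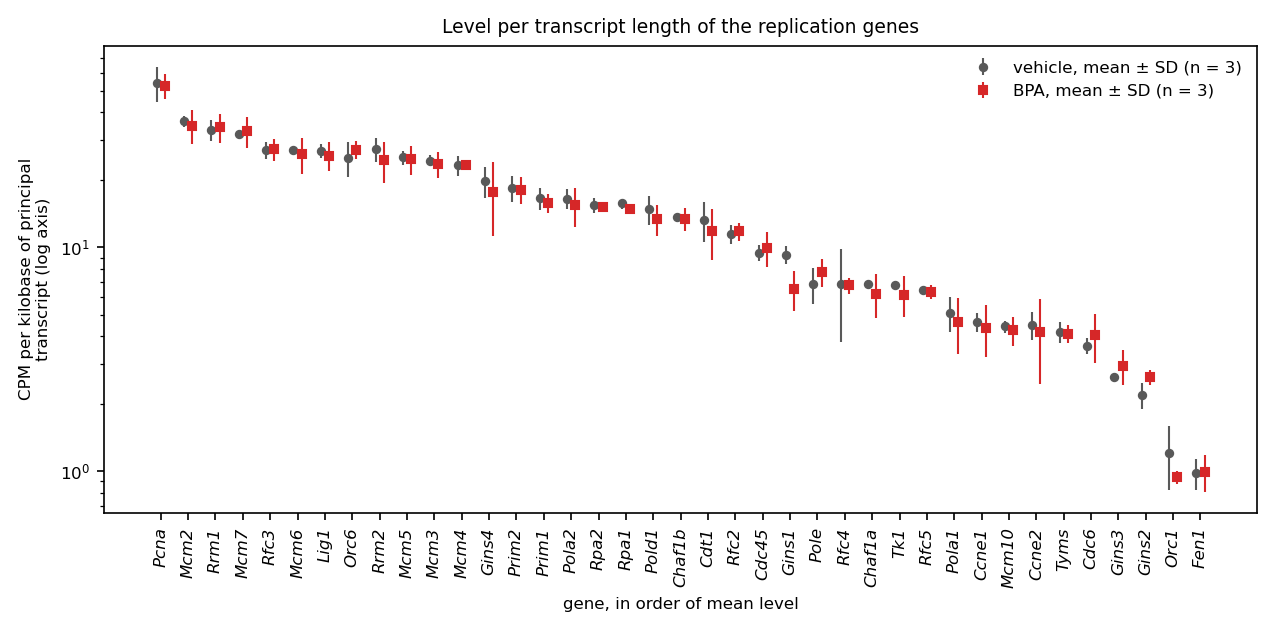
Level of the 39 replication genes in CPM per kilobase of principal transcript (y axis, log scale), ordered by the mean of all libraries, with points for the mean and bars for the SD of 3 vehicle (gray) and 3 BPA (red) libraries. The levels span from 53.5 for Pcna to 0.989 for Fen1, and the bars of the groups overlap for every gene except Gins1.

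The Mcm2-7 ring, the motor that unwinds DNA ahead of the fork, was the role with the highest summed CPM. Mcm2 (chr6:88883474-88898780, GRCm38) had 126, 128 and 115 CPM in the vehicle libraries and 129, 130 and 94.2 CPM in the BPA libraries. The groups overlapped, since BPA replicates 1 and 2 were the highest and BPA replicate 3 was the lowest of the 6. Its log2 fold change was -0.06 (SE 0.121, 95% interval -0.31 to 0.2). The other 5 subunits lay between -0.06 for Mcm6 and 0.06 for Mcm7, with Mcm3 at -0.04, Mcm5 at -0.02 and Mcm4 at 0.01. Summed over the ring, the level was 539 ± 23.9 CPM in vehicle and 530 ± 73.0 CPM in BPA (SD, n = 3), and 5 of the 6 subunits had their lowest level in BPA replicate 3.

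Among the licensing genes, Orc6, a subunit of the origin recognition complex, had the highest CPM. It had 27.1, 38.3 and 31.1 CPM in vehicle and 33.5, 38.9 and 33.2 CPM in BPA, so the groups overlapped, and its log2 fold change was 0.13 (SE 0.144), ranging from 0.018 without vehicle replicate 1 to 0.29 without vehicle replicate 2. The ATPase subunit Orc1 (chr4:108579423-108614833) was rare, with 9 to 33 counts per library. Its level was 2.35, 4.63 and 3.93 CPM in vehicle and 2.97, 2.92 and 2.62 CPM in BPA. The vehicle libraries enclosed the BPA libraries on both sides, and the log2 fold change of -0.34 (SE 0.321, 95% interval -1.02 to 0.34) had the interval that reached beyond a 2-fold change. It was -0.093 without vehicle replicate 2 and -0.59 without vehicle replicate 1.

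The loading factor Cdc6 (chr11:98907801-98923940) was among the 3 genes with the highest fold change. It had 9.39, 9.97 and 8.45 CPM in vehicle and 10.8, 12.6 and 7.56 CPM in BPA, and BPA replicates 1 and 2 were above all vehicle libraries while BPA replicate 3 was below them. Its log2 fold change was 0.19 (SE 0.209, 95% interval -0.26 to 0.63), and 0.020 without BPA replicate 2. Cdt1, which brings the Mcm ring to the origin, was at 29.1 ± 5.89 CPM in vehicle and 25.9 ± 6.63 CPM in BPA (SD, n = 3), with overlapping libraries.

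Helicase activation held the genes with the extreme fold changes of both signs, and they belong to the same complex. GINS is a complex of 4 subunits, Gins1 (Psf1), Gins2 (Psf2), Gins3 (Psf3) and Gins4 (Sld5), that joins Cdc45 and Mcm2-7 at the fork. Gins1 (chr2:150905400-150931280) had 10.6, 8.98 and 10.6 CPM in vehicle and 8.61, 6.81 and 5.82 CPM in BPA. All 3 BPA libraries lay below all 3 vehicle libraries, which held for no other of the 39 genes, while 6.76% of all genes tested had groups that did not overlap (3.57% with BPA lower and 3.19% with BPA higher). The log2 fold change was -0.47 (SE 0.21, 95% interval -0.92 to -0.02), with an adjusted p of 1.0 (0.0402 unadjusted) by edgeR's quasi-likelihood test. It rested on 20 to 72 counts per library, and it ranged from -0.65 to -0.38 when each library was left out, with the unadjusted p above 0.05 without vehicle replicates 1 or 3 or without BPA replicates 2 or 3.

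The other GINS subunits had fitted values of both signs, and the differences between subunits were not tested. Gins2 (chr8:120578633-120589304) had 8.36, 9.69 and 7.47 CPM in vehicle and 10.6, 10.9 and 9.31 CPM in BPA, and only BPA replicate 3 fell within the vehicle range. Its log2 fold change was 0.27 (SE 0.195, 95% interval -0.14 to 0.69). Of its exonic bases, 67.3% also lie in exons of Gse1 on the opposite strand, a more abundant gene with 655 to 1608 counts. Whether strand was used in counting is not stated, so Gins2 may have gained counts of Gse1 or lost some of its own.

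Gins3 (chr8:95633453-95645060) had 6.31, 6.88 and 6.69 CPM in vehicle and 8.77, 7.45 and 6.11 CPM in BPA. BPA replicate 3 was the lowest library and the other BPA libraries were the highest, and the log2 fold change was 0.2 (SE 0.217, 95% interval -0.27 to 0.66), or 0.057 without BPA replicate 1. Gins4, the most abundant gene of this role, had 29.9, 27.9 and 21.8 CPM in vehicle and 21.6, 33.2 and 16.3 CPM in BPA. Its BPA libraries spread wider than the vehicle libraries and enclosed them, and its log2 fold change of -0.14 (SE 0.202) turned to 0.035 without BPA replicate 3 and to -0.47 without BPA replicate 2. In that last fit its unadjusted p was 0.022 by edgeR's quasi-likelihood test, the sole such p under 0.05 of a gene other than Gins1 in any fit. Cdc45 (0.08), which joins the ring with GINS, and Mcm10 (-0.07) had overlapping groups. Summed over the role, 3 genes were below 0 and 3 above.

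Primase and the polymerases start and extend the new strands. Pole, the catalytic subunit of the leading strand polymerase epsilon, had 50.9, 56.4 and 39.1 CPM in vehicle and 64.5, 48.9 and 53.5 CPM in BPA. The highest library was BPA replicate 1 and the lowest was vehicle replicate 3, with the others mixed, and the log2 fold change was 0.19 (SE 0.145, 95% interval -0.12 to 0.49). It was 0.054 without vehicle replicate 3 and 0.057 without BPA replicate 1. The other 5 genes had fitted values below 0. These were Pold1, the catalytic subunit of polymerase delta (-0.14), Pola1 and Pola2 of the polymerase alpha complex (-0.11 and -0.08), and the primase subunits Prim1 (-0.05) and Prim2 (-0.01). For each of these 5, BPA replicate 3 was the lowest of the 6 libraries and the groups overlapped.

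Pcna, the sliding clamp, had 74.4, 99.5 and 73.5 CPM in vehicle and 81.6, 89.4 and 69.2 CPM in BPA. Vehicle replicate 2 was the highest and BPA replicate 3 the lowest, and its log2 fold change of -0.04 (SE 0.135, 95% interval -0.33 to 0.25) became 0.12 without vehicle replicate 2. Of its 50-base words, 19.1% also occur in transcripts of other genes, and the gene sharing most, the pseudogene Pcna-ps2, had 28 to 66 counts itself. The clamp loader genes lay near 0, with Rfc2 at 0.05, Rfc3 at 0.01, Rfc4 at 0.01 and Rfc5 at -0.02. Rfc4 was the most variable of them, with 11.7, 4.35 and 9.04 CPM in vehicle and 7.98, 9.07 and 7.85 CPM in BPA. Its vehicle libraries held both the lowest and the highest value, and its fold change turned from -0.33 to 0.37 with the vehicle library that was left out. Of its exonic bases, 12.7% lie in exons of Eif4a2 on the opposite strand, which had 1043 to 2020 counts, against 27 to 80 for Rfc4.

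Rpa1, the large subunit of the complex that coats single-stranded DNA, was among the steadiest genes of the list. It had 83.6, 75.4 and 80.4 CPM in vehicle and 79.2, 76.2 and 71.9 CPM in BPA, with a coefficient of variation of 5.35% over the 6 libraries. The groups overlapped, with a log2 fold change of -0.07 (SE 0.106, 95% interval -0.3 to 0.15), and its partner Rpa2 was at -0.01. Lig1, the ligase that seals the fragments of the lagging strand, had 85.1, 92.4 and 79.6 CPM in vehicle and 86.3, 90.6 and 67.8 CPM in BPA. Of the BPA libraries, only replicate 3 was outside the vehicle range. The log2 fold change was -0.06 (SE 0.122). Fen1, which trims those fragments, had 8 to 18 counts per library and a log2 fold change of 0.03 with an interval from -0.67 to 0.74. Of its exonic bases, 84.2% lie in exons of the opposite-strand genes Gm10143 and Tmem258, so its low level and its fold change are both uncertain.

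The chromatin assembly factor places histones on new DNA. Its large subunit Chaf1a had 39.3, 38.5 and 36.6 CPM in vehicle and 41.3, 35.3 and 26.2 CPM in BPA, so that BPA replicate 1 was the highest and BPA replicate 3 the lowest. Its log2 fold change was -0.13 (SE 0.146), and 52.5% of its exonic bases lie in exons of Ubxn6 on the opposite strand. Chaf1b, at 26.2 ± 1.29 and 25.8 ± 3.02 CPM (SD, n = 3), differed by less than the spread between replicates.

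Ribonucleotide reductase makes the deoxynucleotides for replication. Its large subunit Rrm1, with the highest CPM of the 39 genes, had 144, 140 and 118 CPM in vehicle and 134, 159 and 118 CPM in BPA, and only 13.8% of all genes tested had a higher mean. Its groups overlapped with a log2 fold change of 0.04 (SE 0.12, 95% interval -0.22 to 0.29). Rrm2 (chr12:24708241-24714146), the subunit whose amount rises in S phase, followed Gins1 and Orc1 as the lowest fold change. It had 67.8, 58.8 and 53.5 CPM in vehicle and 64.7, 54.0 and 42.5 CPM in BPA. Of the BPA libraries only replicate 3 was below the vehicle range, and the log2 fold change was -0.15 (SE 0.143, 95% interval -0.45 to 0.16). It was -0.020 without BPA replicate 3 and -0.31 without BPA replicate 1. Thymidylate synthase Tyms (-0.01) and thymidine kinase Tk1 (-0.13) had overlapping groups.

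The cyclins E pair with Cdk2 at the entry into S phase. Ccne2 had 12.6, 15.7 and 12.2 CPM in vehicle and 12.7, 17.7 and 7.27 CPM in BPA. BPA replicate 2 was the highest library and BPA replicate 3, with 25 counts, was the lowest, so the SD was 1.93 CPM in vehicle and 5.2 CPM in BPA. The log2 fold change was -0.06 (SE 0.236, 95% interval -0.56 to 0.44). Ccne1 showed the same 2 libraries as its extremes, at 11.2 and 6.69 CPM, with a log2 fold change of -0.07. Of the exonic bases of Ccne2, 17.4% lie in exons of Ints8 on the opposite strand, which had 196 to 552 counts, against 25 to 112 for Ccne2.

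**Figure D3:**
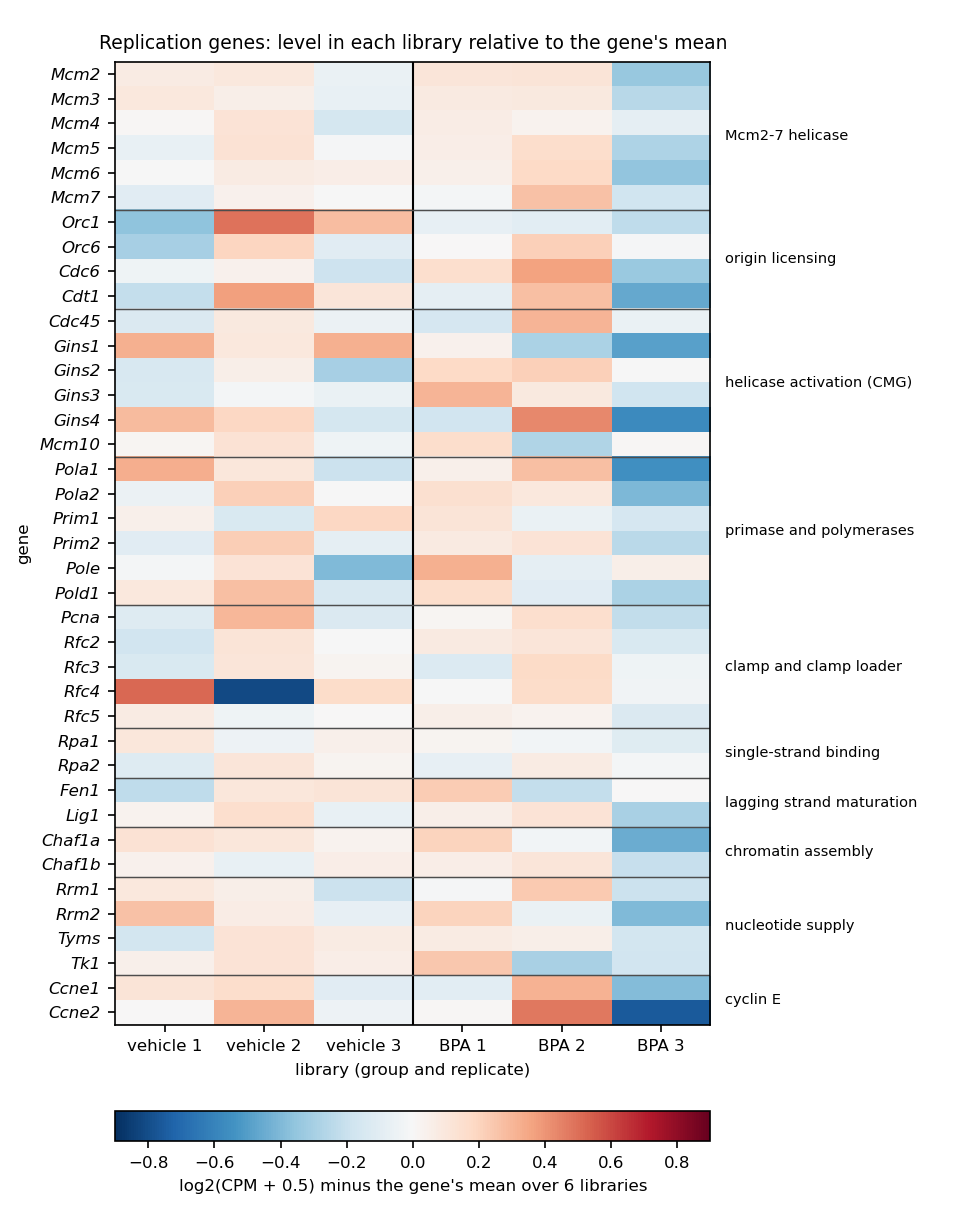
Level of each replication gene (rows, grouped by role) in each library (columns) as log2(CPM + 0.5) minus the gene's mean over the 6 libraries, in a color scale from blue (lower) to red (higher). The column of BPA replicate 3 is blue for most genes, being the lowest library for 24 of 39, whereas red and blue are mixed in the columns of BPA replicates 1 and 2.

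The low values gathered in 1 library. BPA replicate 3 was the lowest of the 6 libraries for 24 of the 39 genes (61.5%), against 19.5% of all genes tested, and was the highest for none. For 38 of the 39 genes it lay below the mean of the other BPA libraries, against 51.5% of all genes tested. Replication genes took 0.137% of its counts (95% Wilson interval 0.133% to 0.141%, counting error alone). The shares were 0.162%, 0.172% and 0.157% in vehicle and 0.167% and 0.177% in the other BPA libraries. Their intervals all lay above that of BPA replicate 3, but such intervals also separated libraries within a group. Vehicle replicate 3 (0.153% to 0.16%) lay below vehicle replicate 2 (0.169% to 0.176%), and BPA replicate 1 (0.164% to 0.17%) below BPA replicate 2 (0.174% to 0.181%). BPA replicate 3 was also the shallowest library. Among the 28 genes with more than 50 counts in it, it was the lowest for 19, and the like share over all genes was not computed. The part of depth in these values was not tested.

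Leaving out this library turned the direction of the list. Without BPA replicate 3, 9 of the 39 genes were below 0 and the median log2 fold change was 0.052, against 26 and -0.038 with all libraries. Without vehicle replicate 2, 19 were below 0 and the median was 0.015. That library was the highest for 11 genes (28.2%, against 17.2% of all genes tested). Leaving out any of the other 4 libraries gave 25 to 30 genes below 0 and medians from -0.088 to -0.045. The median of all genes tested stayed between -0.0095 and 0.004 in these fits. The SD of the list's score between libraries of a group was 0.136 on the log2 scale, larger than any of these medians.

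**Figure D4:**
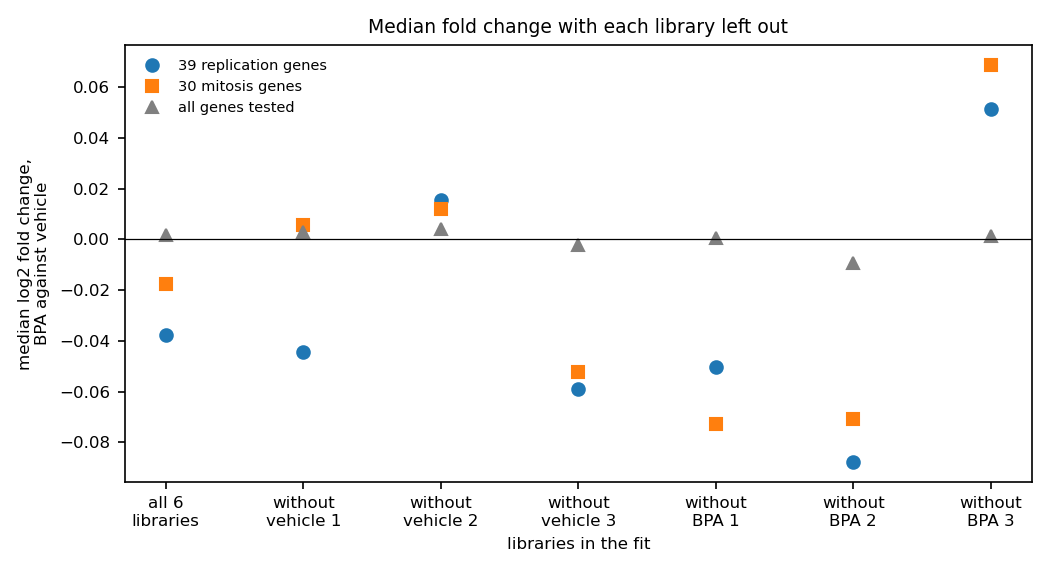
Median log2 fold change (y axis, BPA against vehicle) of the 39 replication genes, of 30 mitosis genes and of all genes tested, with all 6 libraries and with each library left out in turn (x axis). The replication median is below 0 with all libraries (-0.038) and above 0 only without vehicle replicate 2 (0.015) or BPA replicate 3 (0.052).

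Other genes of the replication fork and of the cell cycle were read from lists of their own. Of 46 further genes of the replication machinery, 45 were tested (Pold4 had no counts), 0 had an adjusted p under 0.1, 0 had an unadjusted p under 0.05, and 22 were below 0 with a median of 0.008. The genes nearest to the threshold were Orc3, an origin recognition subunit (log2 fold change 0.23, SE 0.12), and the histone chaperone Asf1b (-0.38, SE 0.212). Of 27 genes of G1 to S control, 0 had an unadjusted p under 0.05, and 20 were below 0 with a median of -0.033. These included the cell cycle inhibitor Cdkn1c (-0.24, SE 0.122) and the transcription factor E2f2 (-0.3, SE 0.188). Of 30 mitosis genes, 0 had an unadjusted p under 0.05, and 19 were below 0 with a median of -0.018, Plk1 (-0.19) and Cenpf (0.15) being nearest to the threshold.

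The score of a list, the mean over its genes of log2(CPM + 0.5) minus each gene's mean, placed the replication genes in the libraries at 0.002, 0.098 and -0.027 in vehicle and 0.064, 0.096 and -0.233 in BPA. The mitosis score was 0.074, 0.102 and -0.132 in vehicle and 0.148, 0.071 and -0.263 in BPA, and that of the further machinery ended at -0.151 in BPA replicate 3. All 3 lists were thus lowest in that library, which was the lowest for 19 of the 30 mitosis genes. The G1 to S score was lowest there too (-0.157), as were 15 of the 27 genes of that list. In the other BPA libraries, the replication and mitosis scores lay within the vehicle range, but for the mitosis score of BPA replicate 1, which was above it.

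Markers of the cells in the sample were set beside these values. The radial glia score was 0.082, 0.06 and -0.044 in vehicle and 0.013, 0.004 and -0.115 in BPA, and that of the intermediate progenitors was -0.178, 0.15 and -0.083 in vehicle and 0.133, 0.111 and -0.134 in BPA. Of the 16 radial glia genes tested, 11 were below 0 (Pdpn had no counts), and of the 11 intermediate progenitor genes 4 were. The 18 markers of postmitotic neurons, all detected, summed to 13000 to 13720 CPM in vehicle and 12740 to 13760 CPM in BPA, and 12 were below 0. Their score was -0.016, 0.009 and 0.036 in vehicle and -0.044, -0.031 and 0.048 in BPA. Radial glia genes summed to 3208 to 3361 CPM in vehicle and 3211 to 3315 CPM in BPA. Markers of both cell types were thus present in every library, which does not by itself place them in the cortex. No list had a gene with an adjusted p under 0.1.

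Markers of the ganglionic eminence, the ventral neighbor of the cortex where inhibitory neurons are born, were all fitted lower in BPA, a direction that was known when the list was written. All 16 were below 0, with a median log2 fold change of -0.289, 8 had an unadjusted p under 0.05 and 12 had groups that did not overlap, all with BPA lower (3.57% of all genes tested). They summed to 1314 to 1484 CPM in vehicle and 1135 to 1256 CPM in BPA, and none was at 0. The lowest were Nkx2-1 (-1.25, adjusted p = 0.251) and Lhx8 (-1.34). BPA replicate 3 had the lowest score of this list too, -0.351, against -0.232 and -0.037 in the other BPA libraries. The part of ventral tissue in the values of the replication genes was not tested.

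Markers of choroid plexus, blood, vessels and microglia were measured in the same way. The choroid plexus genes summed to 225.2 CPM in vehicle replicate 2 and 354.5 CPM in BPA replicate 2, against 12.58 to 19.41 CPM elsewhere. In these libraries replication genes were most often highest (11 and 14 of 39). That is 28.2% and 35.9%, against 17.2% and 16.7% of all genes tested. Only 3 of the 9 genes had enough counts to be tested, and Ttr, named here after its values were seen, made up most of the sums, with 195 and 308 CPM in those libraries and 2.2 to 11.9 CPM elsewhere. Clic6 (11.1 and 18.5 CPM, up to 3.44 elsewhere) and Aqp1 (5.19 and 9.4 CPM, up to 1.38 elsewhere) were also highest in those libraries. So were Folr1, Slc4a5 and Kcnj13, at up to 5.02 CPM. Otx2 did not follow Ttr, at 7.63 CPM in vehicle replicate 1, 6.74 in vehicle replicate 2 and 8.75 in BPA replicate 2. Prlr was highest in BPA replicate 3 (1.75 CPM), and Kl was at most at 0.562 CPM. Erythroid genes summed to 278.8 to 593.8 CPM in vehicle and 326.9 to 411.7 CPM in BPA, vessel and meningeal genes to 255.2 to 319.3 and 250.8 to 304.5 CPM, and microglia genes to 56.01 to 74.52 and 64.51 to 69.19 CPM. Their part in the values of the replication genes was not tested.

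**Figure D5:**
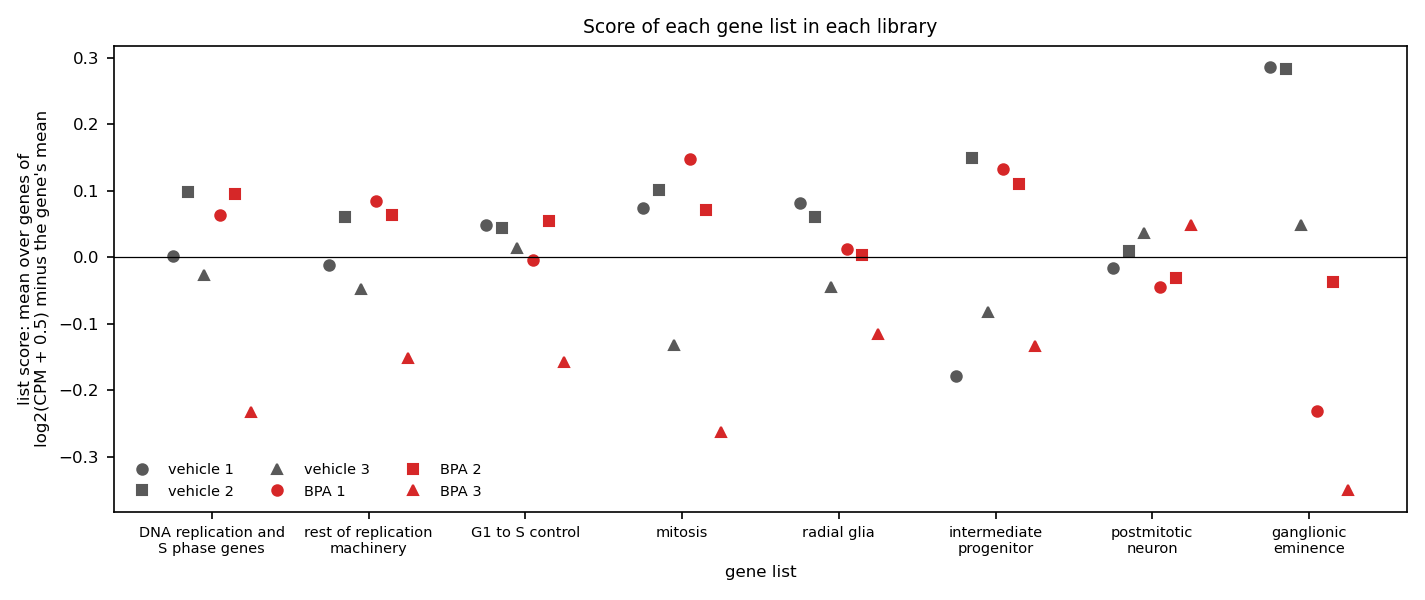
Score of 8 gene lists (x axis) in each library, as the mean over the list's genes of log2(CPM + 0.5) minus the gene's mean (y axis), with gray symbols for vehicle and red symbols for BPA libraries. BPA replicate 3 (red triangle) has the lowest score for the replication genes (-0.233), the further machinery (-0.151), G1 to S control (-0.157) and the mitosis genes (-0.263). It is also lowest for radial glia (-0.115) and ganglionic eminence genes (-0.351), but not for intermediate progenitors (-0.134). For postmitotic neurons it is highest (0.048), with vehicle replicate 3 next (0.036).

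What these genes share in sequence was read from their promoters. E2F factors, which drive many S phase genes, bind sites of a T-rich flank followed by G and C, and here the letters TTTCCCGC, TTTCGCGC, TTTGCCGC and TTTGGCGC were searched on both strands in RefSeq promoters (GRCm38.p6, 250 bases before to 50 bases after the start). A promoter was present for 31 of the 39 genes, and 12 of them (38.7%) held a match, against 2.6% of all 27025 genes with a promoter and 4.62% of the genes tested. The share was 31.7% for the further machinery (13 of 41) and 4.0% for the mitosis genes (1 of 25). Letters of the kind found in mitosis genes, TTTGAA and TTCGAA, were present for 19.4% of the replication genes, 80.0% of the mitosis genes and 21.7% of all genes, and CCAAT for 61.3%, 76.0% and 41.1%. A match is a description of these letters and not of binding.

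The 8 genes whose E2F-type match lay before the RefSeq start are shown, since TTTCCCGC, TTTCGCGC and TTTGGCGC were each more frequent in the list than in all promoters (TTTGCCGC was in none of the 31), with the matching letters in capitals and up to 25 bases on either side. Each runs from 5′ to 3′ on the strand of its gene. The RefSeq start need not be that of the GENCODE gene, against which 3 windows lie outside the gene (Mcm6, Mcm5, Pola1), 2 partly inside (Orc1, Rfc3) and 3 inside it (Mcm7, Gins3, Cdc6). The windows are chr1:128359720-128359840 (minus), chr4:108579402-108579453 (plus), chr5:138172016-138172073 (minus), chr5:151651209-151651243 (minus), chr8:75109331-75109392 (plus), chr8:95633493-95633550 (plus), chr11:98907988-98908045 (plus) and chrX:93632261-93632318 (minus). In Mcm6 and Mcm5, a match on each strand overlaps the other, which gives the longer run of capitals, and Mcm6 holds a further match nearer its start.
Mcm6: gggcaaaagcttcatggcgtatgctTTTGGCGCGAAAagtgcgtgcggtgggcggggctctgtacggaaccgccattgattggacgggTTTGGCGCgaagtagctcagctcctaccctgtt
Orc1: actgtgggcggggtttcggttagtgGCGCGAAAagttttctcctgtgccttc
Mcm7: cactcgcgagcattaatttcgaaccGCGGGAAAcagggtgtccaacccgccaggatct
Rfc3: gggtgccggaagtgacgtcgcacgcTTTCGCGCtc
Mcm5: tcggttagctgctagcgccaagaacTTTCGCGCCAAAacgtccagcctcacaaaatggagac
Gins3: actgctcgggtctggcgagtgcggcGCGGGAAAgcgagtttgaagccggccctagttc
Cdc6: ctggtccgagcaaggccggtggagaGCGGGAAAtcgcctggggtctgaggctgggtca
Pola1: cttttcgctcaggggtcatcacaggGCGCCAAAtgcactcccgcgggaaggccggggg

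With all 6 libraries, values below 0 were in the majority with and without the E2F-type letters. Of the 12 replication genes with a match, 8 were below 0, with a median log2 fold change of -0.051. Of the 19 without one, 14 were below 0, with a median of -0.038. Among all tested genes with a promoter, 222 of 446 with a match and 4551 of 9198 without were below 0. For TTTGAA and TTCGAA, 1 of 6 replication genes with a match and 21 of 25 without were below 0. For CCAAT, these were 13 of 19 and 9 of 12. The 3 genes with E2F-type matches before the RefSeq start at the edges of the set, Orc1 (-0.34), Cdc6 (0.19) and Gins3 (0.2), had fitted values of both signs. Gins1 and Gins2, the genes with the lowest and highest values, have no entry among the promoters used here.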

How the data were processed

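Groups were taken from the labels (3 vehicle, 3 BPA), and replicates were numbered in accession order, so the numbers pair no libraries. The age is that of the labels and of the study's methods, while its results text names a later day. Per the study's methods, strand-specific libraries gave 50-base single-end reads, which TopHat placed on GRCm38 and featureCounts assigned to GENCODE genes. The submitters' processing notes list TopHat2 2.0.14 and StringTie 1.2.4. Whether strand or reads with several alignments were used is not given in the sources used here, so overlapping and duplicated genes may gain or lose counts.

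The authors deposited raw counts per gene symbol, without normalization. In R 4.3.3, genes were filtered by filterByExpr of edgeR 4.0.16 (minimum count 10, minimum total 15), and library sizes were scaled by its TMM method (a trimmed mean of gene ratios). The groups were compared by edgeR's quasi-likelihood test with group as the sole term. P-values were adjusted after Benjamini and Hochberg over all 13741 genes, with a threshold of 0.1. CPM, the 95% intervals and standard errors come from that fit. Coordinates, overlaps and lengths are those of GENCODE M21 (GRCm38), the length being that of the longest APPRIS principal transcript. Shared sequence is given as the percentage of 50-base words in a gene's transcripts that another gene also holds. Total counts ran from 3444601 to 7180835, and intervals of shares cover counting error alone.

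The 39 genes, the other lists and the tests were chosen with earlier results of these data known, so lists are described by counts and medians and have no test. Values per library are printed for the genes with the 3 lowest and 3 highest fold changes, those with an unadjusted p under 0.05 and the most abundant of each role. Rfc4 was added for its spread after its values were seen. Of the other lists, genes with an unadjusted p under 0.05, or else the 2 with the smallest p, were eligible to be named. The other choroid plexus genes were named after their values were seen. Alternatives were DESeq2 1.42.0, limma-voom (limma 3.58.1), other scalings, other filters and omission of each library. Counting only genes with under 10% of exonic bases overlapped was an alternative chosen after seeing the data. Scripts had been tested on simulated data with known changes.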

Additional observations from a re-analysis of the deposited data

How the results depend on the processing

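With 3 libraries per group, the precision is that of the 95% intervals given above, which were widest for Orc1 and Fen1, which had the fewest counts. Litters are not given, the counting options are not stated, and the direction of the list turned without BPA replicate 3, the shallowest library, and its median also without vehicle replicate 2. No paired analysis was possible because the labels give no replicate number shared between groups.

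No replication gene had an adjusted p under 0.1 under DESeq2, limma-voom, RLE scaling, library size alone, no filter, a filter of 10 CPM in 3 libraries, or with any library left out (lowest adjusted p 0.949). Over all genes, that threshold was passed by 0 genes, but by 3 under DESeq2 and 19 without a filter, and by 0 to 1 with a library left out. An unadjusted p under 0.05 was found for 302 genes, 126 under DESeq2, 620 without a filter, 162 under the 10 CPM filter and 194 to 708 with a library left out. Among the replication genes the count was 1, and 0 under DESeq2 and under the 10 CPM filter (which kept 30 of them and not Gins1), and 0 to 1 with a library left out (Gins4 in place of Gins1 without BPA replicate 2). The causes were not tested, beyond the fewer or more genes that the filters test.

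The number of replication genes below 0 was 22 to 27 under the other tests, scalings and filters and 9 to 30 with a library left out, and 22 of the 30 with under 10% of exonic bases overlapped (median -0.046). Leaving out a library gave 14 to 29 genes of the further machinery and 6 to 25 mitosis genes below 0, and a median over all genes of -0.0095 to 0.0040. Leaving out BPA replicate 3 gave the lowest of these 3 counts. The cause was not tested.

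Under the other tests, scalings and filters, 221 of 225 fold changes kept their direction, and the exceptions were all near 0. These were Rfc4 (-0.0034) under DESeq2, Chaf1b (0.0038) with library size alone, and Tyms (0.0040) and Chaf1b (0.0044) under limma-voom. With a library left out, 186 of 234 kept it, and 29 genes changed sign in at least 1 fit. The log2 fold change spanned -0.14 to 0.069 for Mcm2, -0.099 to 0.051 for Mcm3, -0.059 to 0.083 for Mcm4, -0.11 to 0.088 for Mcm5, -0.17 to 0.068 for Mcm6, -0.074 to 0.15 for Mcm7, -0.18 to 0.055 for Mcm10, -0.13 to 0.12 for Pcna, -0.47 to 0.035 for Gins4 and -0.35 to 0.028 for Cdt1. It spanned -0.091 to 0.19 for Cdc45, -0.088 to 0.13 for Rrm1, -0.097 to 0.063 for Tyms, -0.33 to 0.00068 for Tk1, -0.30 to 0.058 for Pola1, -0.17 to 0.056 for Pola2, -0.13 to 0.024 for Prim1, -0.079 to 0.11 for Prim2, -0.028 to 0.12 for Rfc2 and -0.092 to 0.078 for Rfc3. For the rest it spanned -0.33 to 0.37 for Rfc4, -0.048 to 0.029 for Rfc5, -0.073 to 0.048 for Rpa2, -0.14 to 0.18 for Fen1, -0.15 to 0.043 for Lig1, -0.29 to 0.0068 for Chaf1a, -0.064 to 0.076 for Chaf1b, -0.29 to 0.056 for Ccne1 and -0.38 to 0.16 for Ccne2. No unadjusted p of these fits was under 0.0186.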
